A study of Mus musculus with 6 samples.

Results

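The 10 genes described here carry or receive the Hedgehog signal: the ligands Shh and Ihh, the receptors Ptch1 and Smo, the transcription factors Gli1, Gli2 and Gli3, the ligand-binding inhibitor Hhip and the co-receptors Cdon and Boc. They were chosen by name, out of 22367 protein-coding genes of the mm9 annotation, and all 10 were found in it. Each gene was examined over its body and 100 kb on either side, 2.86 Mb in all, for tags and peaks of chromatin immunoprecipitation sequencing (ChIP-seq). The libraries numbered 6, 1 per condition. In E12.5 vertebral column of CD1 embryos, Bapx1 carrying an S-peptide tag at its own locus was pulled down with an S-peptide antibody, and the control was the same antibody on wild type embryos. About 100 embryos were pooled for each library of this pair. Sox9 was pulled down with a Sox9 antibody against an IgG control, and for this pair the labels add the limb to the vertebral column. In NIH_3T3 cells, a mouse fibroblast line, V5 tagged Bapx1 was over-expressed and pulled down with a V5 antibody, and its V5 control is described both as cells with the empty pcDNA6 vector and as wild type cells. Sequenced DNA does not report expression, so the tissue could not be checked by its marker genes.

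Hedgehog ligands bind Ptch1, which otherwise holds Smo inactive. Active Smo lets the Gli proteins switch on target genes, among them Ptch1, Gli1 and Hhip themselves, while Gli3 without signal acts mainly as a repressor. Shh from the notochord and floor plate induces the sclerotome, the source of the vertebrae, and Bapx1 (also called Nkx3-2) is among the homeobox genes of that tissue. Ihh acts later, in the growing cartilage. The comparisons below ask where the deposited Bapx1 and Sox9 peaks lie in these loci and whether the tags at those places differ between ChIP and control.

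The embryo Bapx1 list had 15 peaks in 7 of the 10 loci, the NIH3T3 list had 34 peaks in 10 of 10, and the Sox9 list, after its positions were moved onto mm9 as described below, had 15 peaks in 8 of 10. These counts depend on the limits: with flanks of 50 kb the embryo list had 6 peaks in 4 loci, and at p of at most 1e-10 it had 3 in 2 and the NIH3T3 list 6 in 3. At an FDR of at most 5% the embryo list had 0 and the Sox9 list 1. Among all protein-coding genes, taken with the same flanks, 25.1% had at least 1 embryo peak, 81.0% at least 1 NIH3T3 peak and 26.7% at least 1 Sox9 peak. The member loci are long, and per length they held 5.25 embryo peaks per Mb against 1.35 per Mb summed over all gene loci, and 5.25 Sox9 peaks per Mb against 1.52. For NIH3T3 the 2 densities, 11.9 and 11.1 peaks per Mb, lay close together. Cdon, with 4 embryo peaks, and Boc, with 3, belonged to the 1.26% of genes with at least 3. Gli2 and Cdon, with 4 Sox9 peaks each, belonged to the 2.11% of genes with at least 3 of those, whereas the 5 members with at least 3 NIH3T3 peaks compare with 44.4% of all genes. Shh, Ihh and Hhip had no embryo Bapx1 peak, and Shh and Gli1 had no Sox9 peak.

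**Figure D1:**
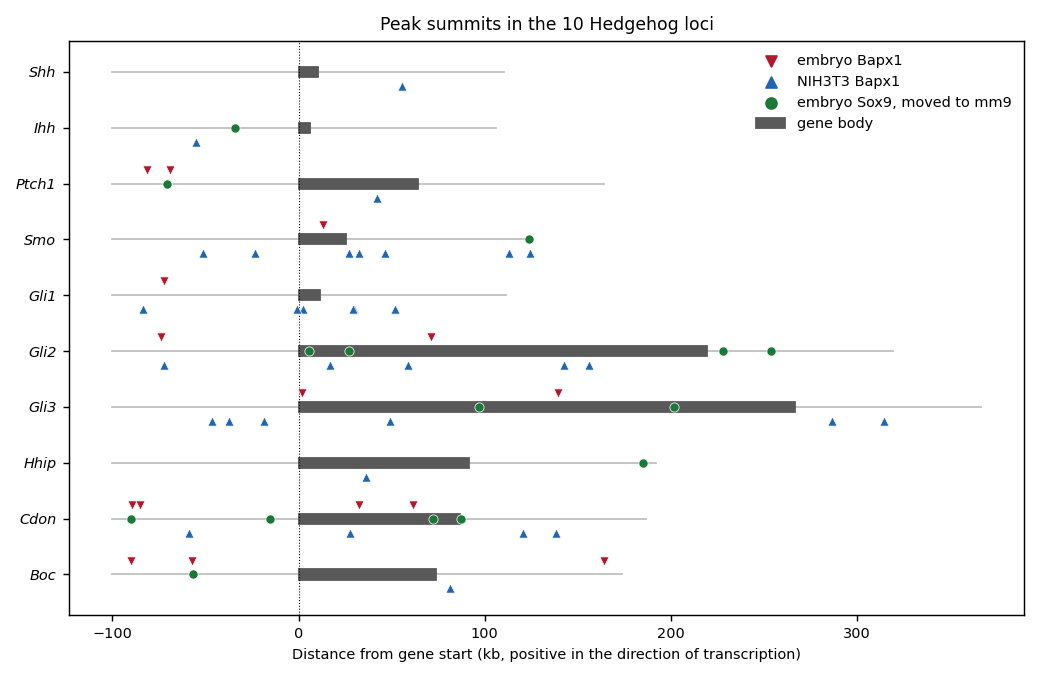
Peak summits of the embryo Bapx1, NIH3T3 Bapx1 and moved Sox9 lists (symbols) around the 10 gene starts, with gene bodies as dark bars and the 100 kb flanks as grey lines; the x axis is the distance from the gene start in kb. The 15 embryo summits lie mostly away from the starts, 1 of them within 5 kb of the first start of its gene, and in Gli1 2 pairs of NIH3T3 summits lie too close together to be told apart.

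In the embryo list 6 of the 15 summits lay inside a member gene, and 10 of 15 had a start of a member as the nearest annotated start. Over every pair of a protein-coding gene and an embryo summit in its locus, 17.9% of summits lay inside the gene, 31.0% had it as the nearest start and 8.31% lay within 5 kb of its first start. A summit counts there for each gene whose locus holds it, and the shares were not adjusted for gene length and spacing. The loci of the long genes Gli2 and Gli3 held 1 protein-coding gene each. Measured from the first start of each member gene, 1 of the 15 lay within 5 kb, in Gli3, and 2.67% of all genes had at least 1 such summit. A Gli2, a Cdon and a Boc summit lay by an internal start of the gene or the start of a neighbour, as given below. The false discovery rate (FDR), which the peak caller MACS obtained by exchanging ChIP and control, was 53.71% to 70.01% for these 15 peaks, and 0 of them reached an FDR of 5%. The median over the whole embryo list of 2815 peaks was 61.1%. In the values that follow, tags were recounted within 200 bp of each summit, the ratio is that of ChIP to control after scaling to the tags of each library, and its interval at 95% covers counting error only. Since the peaks were chosen by MACS on the same 2 libraries, the embryo ratios at embryo summits describe the sites and test nothing.

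Of the Gli genes, which encode the transcription factors at the end of the pathway, Gli3 held the peak with the smallest p of the 15. Its summit 140 kb downstream of the start, in an intron (chr13:15694528-15694960, mm9), had 32 tags in the Bapx1 library and 2 in the wild type control, a ratio of 13.3 (3.40 to 115). The other 4 libraries had between 3 and 6 tags there, so that the Bapx1 library of the embryo stood alone. With tags counted within 500 bp, the embryo ratio at this summit was 6.11 (2.59 to 17.5). The second Gli3 summit, 1.74 kb downstream of the gene start and 997 bp from the nearest annotated transcript start (intron, chr13:15556645-15557008), had 32 tags against 9, a ratio of 2.96 (1.38 to 7.05). At this place the NIH3T3 pair had 11 tags against 5, a ratio of 3.08 whose interval of 0.986 to 11.3 included 1. That pair was called there with tags counted within 500 bp, at 3.60 (1.43 to 10.2), and with repeated tags kept, at 3.22 (1.03 to 11.8). The sequences 50 bp either side of both summits are shown, since the former has the smallest p of the 15 and the latter lies nearest to the first start of its gene. Capitals mark a match to the known Bapx1 motif, TGAGTG or TAAGTG on either strand.
Gli3, embryo Bapx1 summit, 140 kb downstream of the start (chr13:15694691-15694791, mm9, plus strand): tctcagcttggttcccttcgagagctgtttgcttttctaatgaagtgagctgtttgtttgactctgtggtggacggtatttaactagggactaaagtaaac
Gli3, embryo Bapx1 summit, 1.74 kb downstream of the start (chr13:15556760-15556860, mm9, plus strand): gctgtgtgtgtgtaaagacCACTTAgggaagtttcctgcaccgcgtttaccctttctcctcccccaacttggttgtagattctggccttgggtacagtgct
The weaker of these Gli3 sites by ratio has CACTTA, the reverse complement of TAAGTG, and the stronger has no match within 50 bp.

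Gli2, the main activator among the Gli factors, had an intronic summit 71.0 kb downstream of its start (chr1:120879046-120879412), which lay 68 bp from the start of a shorter annotated Gli2 transcript. There the embryo libraries had 26 tags against 7, a ratio of 3.09 (1.31 to 8.44), and the NIH3T3 libraries 7 tags against 1, a ratio of 9.79 (1.26 to 441). With tags counted within 200 bp, it was the only embryo summit of the 15 at which the NIH3T3 pair was called, that is, with a ratio of at least 1.5 and an interval above 1. Neither ratio kept its call in every window: within 100 bp the NIH3T3 ratio was 2.80 (0.146 to 165), and within 500 bp the embryo ratio was 1.62 (0.909 to 2.99). Another Gli2 summit 74.1 kb upstream had 22 tags against 3 in the embryo. The Gli1 locus, named for a gene that is itself switched on by the signal, had a summit 72.5 kb upstream with 17 tags against 5. That summit lies in an intron of R3hdm2 and is nearer to the start of R3hdm2 than to that of Gli1.

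Both receptors had embryo peaks, of different kinds. Ptch1 had 2, both between genes and upstream, with Ptch1 as the nearest start. At 68.9 kb the embryo libraries had 24 tags against 3, a ratio of 6.66 (2.02 to 34.6), and at 81.6 kb 16 tags against 4, a ratio of 3.33 (1.07 to 13.7). Neither place was called in the NIH3T3 pair, where the ratios were 0.280 (0.00592 to 2.50) and 2.33 (0.454 to 15). Smo had 1 summit, in an intron 13.2 kb downstream of the start (chr6:29698291-29699103), to which the authors' list gives 139 tags, the most of the 15. Here the control was high as well. The Bapx1 library had 81 tags and the wild type control 48, a ratio of 1.41 (0.972 to 2.05). In the Sox9 pair the control was the higher, with 27 tags for Sox9 and 82 for IgG, a ratio of 0.343 (0.214 to 0.536), and the NIH3T3 libraries had 4 and 8. The sequence at this summit is a run of short repeats.
Smo, embryo Bapx1 summit, 13.2 kb downstream of the start (chr6:29698875-29698975, mm9, plus strand): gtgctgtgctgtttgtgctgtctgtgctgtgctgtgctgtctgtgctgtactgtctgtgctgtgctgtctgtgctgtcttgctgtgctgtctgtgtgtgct
It holds TGCTGT 12 times, counted on both strands, and 31 distinct words of 6 letters out of the 96 positions in the window. The median over the embryo list was 94 distinct words, and 0.426% of its summits had as few as this one. What the repeat contributes to the tags was not tested.

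The co-receptors Cdon and Boc, related membrane proteins that bind the ligands and promote signalling, held 7 of the 15 embryo peaks. In the Cdon locus the summit 89.7 kb upstream had 23 tags against 4, a ratio of 4.79 (1.64 to 19.1). Within 500 bp its ratio was 1.87 (1.01 to 3.62). The start of Gm5614 was nearer to this summit than that of Cdon, at 49557 bp, and nearer to the next summit too, at 54294 bp. The one 85.0 kb upstream had 19 tags against 4, and that 61.3 kb downstream, in an intron, had 27 against 8. All 3 intervals lay above 1, but within 100 bp the ratio at 85.0 kb upstream was 3.33 (0.899 to 18.4). The fourth, 32.5 kb downstream of the gene start (intron, chr9:35261054-35261275), had 20 tags against 1, a ratio of 16.7 (2.66 to 690), which fell to 2.50 (1.14 to 6.04) when tags were counted within 500 bp. This summit lies 1548 bp from the start of an internal Cdon transcript, not from the first start of the gene. Around that internal start, within 500 bp, the embryo libraries had 12 tags against 6, a ratio of 1.67 (0.579 to 5.41) that could not be separated from 1. In the Boc locus the summit 89.8 kb upstream had 30 tags against 6, a ratio of 4.16 (1.71 to 12.2), and lay nearer to the start of BC027231, at 75630 bp, than to that of Boc. The one 57.1 kb upstream had 19 against 6, a ratio of 2.64 (1.01 to 8.07), and the one 164 kb downstream had 24 against 10, a ratio of 2.0 whose interval of 0.921 to 4.68 included 1. The last lies 76 bp from the start of Wdr52, a neighbouring gene. The sequences of 3 of them are shown, for the 2 sites shared with Sox9 and for the Boc site with a match to each form of the motif.
Cdon, embryo Bapx1 summit, 89.7 kb upstream of the start (chr9:35138927-35139027, mm9, plus strand): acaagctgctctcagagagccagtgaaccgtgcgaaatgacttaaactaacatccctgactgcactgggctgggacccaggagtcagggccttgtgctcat
Boc, embryo Bapx1 summit, 57.1 kb upstream of the start (chr16:44616037-44616137, mm9, plus strand): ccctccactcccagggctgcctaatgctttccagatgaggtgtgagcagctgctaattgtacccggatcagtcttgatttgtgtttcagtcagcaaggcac
Boc, embryo Bapx1 summit, 89.8 kb upstream of the start (chr16:44648734-44648834, mm9, plus strand): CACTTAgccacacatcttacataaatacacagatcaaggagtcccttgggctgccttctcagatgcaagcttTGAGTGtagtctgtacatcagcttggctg
Both shared sites lack the Bapx1 motif within 50 bp, whereas the Boc site at 89.8 kb has CACTTA at one edge and TGAGTG 22 bp from the summit.

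**Figure D2:**
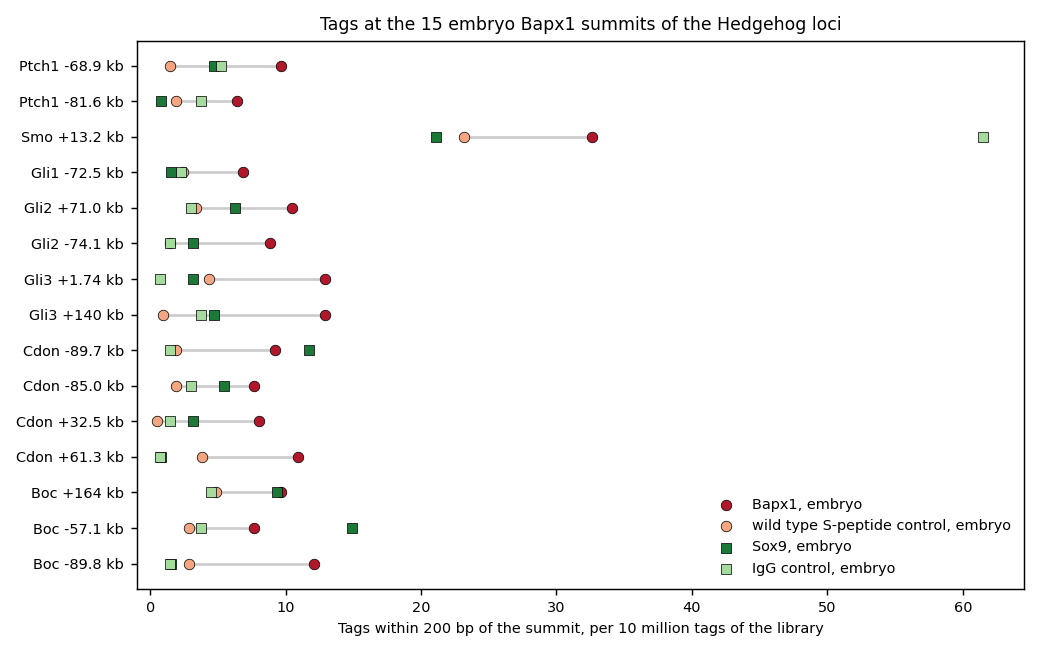
Tags within 200 bp of the 15 embryo Bapx1 summits, per 10000000 tags of the library (x axis), for the Bapx1 and wild type control libraries (circles, joined by a line) and the Sox9 and IgG libraries (squares). At Smo all 4 embryo libraries are high and IgG is the highest, while Sox9 stands clear of IgG at Cdon −89.7 kb and Boc −57.1 kb.

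Taken over the 15 embryo summits, 13 had an embryo ratio of at least 1.5 with an interval above 1. That share of 86.7% compares with 85.0% of the whole embryo list. The exceptions were Smo and the Boc summit beside Wdr52. The pooled ratio was 2.86 (2.33 to 3.53), and 3.83 (2.96 to 5.01) without Smo, against 3.98 (3.91 to 4.05) over the whole list. Other libraries did not use these sites in their selection and can be compared with the list. The NIH3T3 pair was called at 1 of 15, against 11.0% of all embryo summits, with a pooled ratio of 1.33 (0.896 to 1.96) against 1.69 (1.64 to 1.74). The Sox9 pair was called at 2 of 15, against 11.8% of the summits that could be placed. Its pooled ratio was 0.939 (0.726 to 1.21), but 1.94 (1.35 to 2.80) without Smo, which alone supplied 82 of the 131 IgG tags, and 1.64 (1.60 to 1.68) over the list. In dissected tissue, fewer cells carrying a bound site and a lower occupancy per cell cannot be told apart.

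In NIH3T3 cells the peaks were more numerous than in the embryo list, and their FDRs were lower. The FDR of the 34 peaks was 0.06% to 5.01%, and the pooled ratio at their summits was 7.60 (6.04 to 9.65), against 7.31 (7.25 to 7.37) over the list of 23205. At the 34 summits it was 4.26 (3.65 to 4.99) within 500 bp and 10.5 (7.76 to 14.4) within 100 bp. MACS chose these summits on the same NIH3T3 libraries, so NIH3T3 ratios at them describe the sites and test nothing. What library depth contributes to the difference from the embryo list was not tested. At 15 of 34 summits the nearest annotated start was that of a member, and 9 lay inside a member gene, against 29.9% and 18.8% over all pairs of a gene and an NIH3T3 summit. These shares too were not adjusted for gene length and spacing. The Gli1 and Smo loci held 7 peaks each, Gli3 6, Gli2 5 and Cdon 4, whereas Shh, Ihh, Ptch1, Hhip and Boc had 1 each. The one with the smallest p lay 287 kb from the Gli3 start, beyond the 3′ end of the gene, with 29 tags for Bapx1 and 2 for V5, a ratio of 20.3 (5.13 to 175). Its fold enrichment in the authors' list was 44.03. Another Gli3 site 46.6 kb upstream had 33 tags against 8, a ratio of 5.77 (2.61 to 14.5). They are shown beside each other because the former has no motif and the latter has 3 matches.
Gli3, NIH3T3 Bapx1 summit, 287 kb downstream of the start (chr13:15841625-15841725, mm9, plus strand): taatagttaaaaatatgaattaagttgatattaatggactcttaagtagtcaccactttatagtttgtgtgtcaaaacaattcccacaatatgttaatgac
Gli3, NIH3T3 Bapx1 summit, 46.6 kb upstream of the start (chr13:15508452-15508552, mm9, plus strand): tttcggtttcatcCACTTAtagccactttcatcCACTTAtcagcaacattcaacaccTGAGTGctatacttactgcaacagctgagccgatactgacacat
In the embryo pair both places were at background, with 6 tags against 3 and 2 against 2.

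Gli1 was the only member with NIH3T3 peaks within 5 kb of its first start, and it had 2. Over all genes 16.9% had at least 1 such peak. The summit 0.817 kb upstream (chr10, between genes) had 16 tags against 4, a ratio of 5.60 (1.81 to 23.0), and the intronic summit 2.21 kb downstream had 13 against 3, a ratio of 6.06 (1.67 to 33.2). Neither was called in the embryo pair, with 6 tags against 9 and 12 against 9. The sequence of the upstream site has no match to the motif.
Gli1, NIH3T3 Bapx1 summit, 0.817 kb upstream of the start (chr10:126779412-126779512, mm9, plus strand): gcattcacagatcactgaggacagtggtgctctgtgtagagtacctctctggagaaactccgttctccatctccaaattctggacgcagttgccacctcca
The smallest p in the Gli1 locus belonged to a summit 52.1 kb downstream, 485 bp from the start of Mbd6, with 23 tags against 2. For Smo the corresponding summit was 46.2 kb downstream in an intron of Ahcyl2, with 15 tags against 1. Such summits stand within the loci by distance, but beside the starts or in the introns of other genes.

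Among the members with a single NIH3T3 peak, the summit of the receptor Ptch1 lay in its own intron 42.2 kb downstream, with 15 tags against 5, a ratio of 4.2 (1.45 to 14.8), which became 2.24 (0.955 to 5.52) within 500 bp. The summit of Hhip, the secreted and membrane-bound antagonist, also lay in its own intron, 36.2 kb downstream, with 11 tags against 1. Those of the ligands Shh and Ihh lay in introns of Rbm33 and Nhej1, with 11 tags against 3 and 15 against 4. For Boc the summit lay 81.4 kb downstream in an intron of Wdr52, with 12 tags against 3. In the large loci of Gli2 and Cdon the smallest p fell 58.9 kb downstream of the Gli2 start in an intron, with 19 tags against 5, and 139 kb downstream of the Cdon start, 200 bp from the start of Pus3, with 16 against 2. Another Cdon summit, in an intron 27.4 kb downstream, lay 3510 bp from the internal Cdon start named above, with 11 tags against 1. Its ratio was 15.4 (2.24 to 662), and 3.03 (1.08 to 9.73) within 500 bp.

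**Figure D3:**
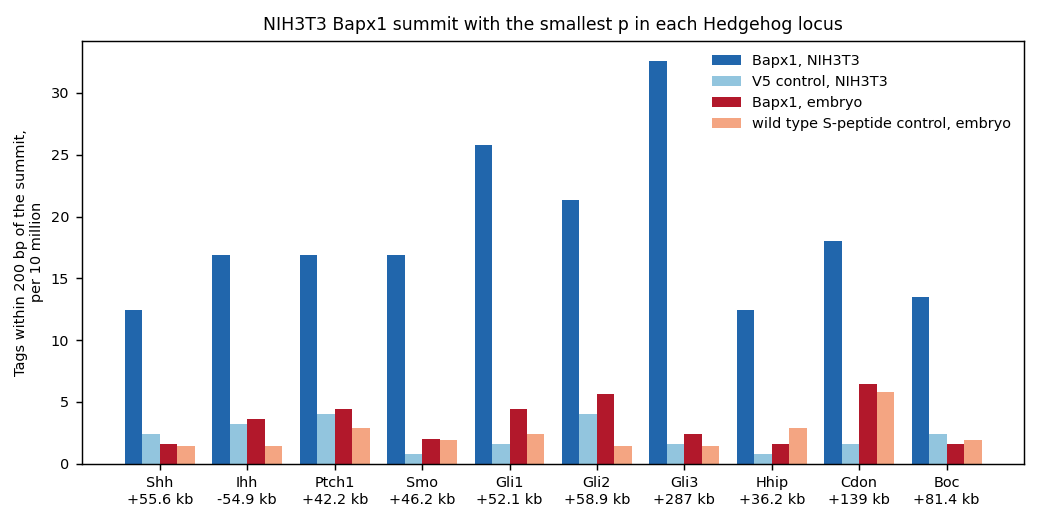
Tags within 200 bp of the NIH3T3 Bapx1 summit with the smallest p in each of the 10 loci, per 10000000 tags of the library (y axis), in the 2 NIH3T3 libraries and the 2 embryo S-peptide libraries (bars). The NIH3T3 Bapx1 bar is the tallest in each locus. The choice of summits fixes it above the V5 bar and favours its height, while the embryo libraries took no part in that choice. Of the embryo bars, only those at Gli2 differ with an interval of their ratio above 1.

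At the 34 NIH3T3 summits the embryo pair was called at 1, against 2.19% of the whole list. That was the Gli2 summit 58.9 kb downstream, with 14 tags against 3, a ratio of 3.89 (1.08 to 21.1). The pooled embryo ratio was 1.25 (1.03 to 1.52), and 1.12 (1.11 to 1.13) over the list. The Sox9 pair was called at 3 of 34, against 0.971% of the list, at the Gli1 summit 2.21 kb downstream with 9 tags against 1, at a Smo summit 23.5 kb upstream with 11 against 3, and at the Boc summit with 7 against 0. These 3 sites rest on 7 to 11 tags, and at Boc the interval of the ratio began at 1.5. No NIH3T3 summit lay within 2000 bp of any of the 15 embryo summits, against 10.7% of the embryo list, and the nearest were 2010 bp apart, upstream of Gli2.

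The Sox9 and IgG tags were deposited at positions that do not line up with mm9. Each Sox9 summit was therefore moved by the displacement that best matched the surrounding Sox9 and IgG tags to the 2 embryo S-peptide libraries, which gave a clear answer for 3472 of 3722 peaks (93.3%). Of these, 95.8% moved by more than 1 kb, by 84900 bp at the median. Displacements from windows of 500 kb and 200 kb agreed within 100 bp for 3244 of 3247 peaks, which shows agreement and not accuracy. The Bapx1 library was part of the reference, and what this does to distances between Bapx1 and Sox9 summits was not tested. A Sox heptamer, CAA preceded by any pair of A or T and followed by A or T and then G, was found within 50 bp of 34.6% (33.0 to 36.2) of the moved summits. It was found at 15.5% (14.4 to 16.7) of the 3722 summits as deposited and in 13.5% of windows 500 bp from the moved ones, so the moved positions are the ones used here.

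Cdon held the Sox9 peak with the smallest p in the 10 loci, in an intron 72.5 kb downstream of the start, with 30 Sox9 tags and 0 IgG tags, and the interval of the ratio began at 7.97. It was the only one of the 15 with an FDR below 5%, at 2.41%. The next, 15.3 kb upstream of Cdon with Cdon as the nearest start, had 26 tags against 3, a ratio of 9.04 (2.77 to 46.6) and an FDR of 6.54%. In Gli2, the summit with the smallest p lay in an intron 5.55 kb downstream of the start, with 18 tags against 4, a ratio of 4.69 (1.55 to 19.1). In Gli3 it lay in an intron 96.9 kb downstream, with 16 tags against 3, and in Boc it was the site 56.9 kb upstream. The ligand Ihh had a site 33.9 kb upstream in an intron of Nhej1, with 21 tags against 2. The single sites of Ptch1, Smo and Hhip had FDRs of 100%, with 13 tags against 4, 9 against 0 and 11 against 1. The Smo site lay 124 kb downstream of the Smo start, in an untranslated part of Ahcyl2 and 6 bp from an Ahcyl2 start. Of the 15 moved summits 6 held the heptamer, and 2 of them, shown here with the heptamer in capitals, held a facing pair of it.
Cdon, Sox9 summit, moved, 72.5 kb downstream of the start (chr9:35301195-35301295, mm9, plus strand): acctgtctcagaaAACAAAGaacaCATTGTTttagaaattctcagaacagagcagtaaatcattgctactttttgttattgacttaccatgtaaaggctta
Gli2, Sox9 summit, moved, 5.55 kb downstream of the start (chr1:120944597-120944697, mm9, plus strand): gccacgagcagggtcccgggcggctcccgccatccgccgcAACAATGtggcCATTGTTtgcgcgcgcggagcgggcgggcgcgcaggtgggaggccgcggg
In both, the heptamers face each other across 4 bases. Sox9 is known to bind paired sites of this kind as a dimer in cartilage genes. The same arrangement was found at 1.67% of all moved Sox9 summits (58 of 3472) and in 0 of 6944 windows 500 bp away, a count that was added after these sequences had been seen.

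Both Cdon and Boc had a site at which Bapx1 and Sox9 peaks met in the embryo. The Cdon summit 89.7 kb upstream lay 78 bp from a moved Sox9 summit, and the Sox9 pair there had 15 tags against 2, a ratio of 7.82 (1.82 to 70.5). The Boc summit 57.1 kb upstream lay 176 bp from one, with 19 tags against 5, a ratio of 3.96 (1.43 to 13.6). Since each peak was called on its own pair, these ratios describe the sites and test nothing. At the Cdon site the FDR was 64.02% for the Bapx1 peak and 67.39% for the Sox9 peak. At the Boc site the FDRs were 54.36% and 26.57%. The count of 2 of 15 embryo summits within 200 bp of a moved Sox9 summit compares with 7.07% of the whole embryo list. Within 2000 bp it was 3 of 15 against 9.77%, the third being the Ptch1 summit 68.9 kb upstream, 1542 bp from a Sox9 summit. The NIH3T3 pair was not called at any of them, with at most 5 tags in either library.

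**Figure D4:**
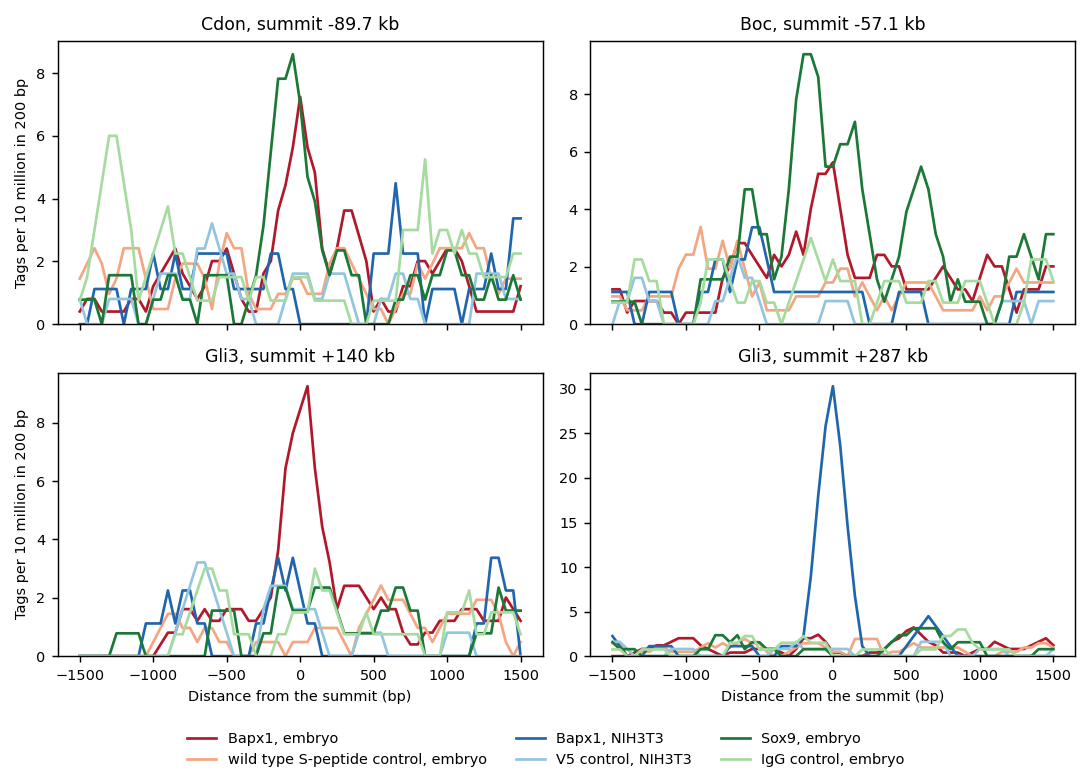
Tags per 10000000 of the library in sliding windows of 200 bp (y axis) against the distance from the summit in bp (x axis), in all 6 libraries at 4 sites. Bapx1 and Sox9 of the embryo rise together at Cdon −89.7 kb and Boc −57.1 kb, embryo Bapx1 alone at Gli3 +140 kb, and NIH3T3 Bapx1 alone at Gli3 +287 kb, where it reaches 30.3.

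At the 15 moved Sox9 summits the embryo Bapx1 pair was called at 6, against 13.7% of all moved Sox9 summits, with a pooled ratio of 1.85 (1.41 to 2.45) against 1.59 (1.56 to 1.62). Those in Cdon and Boc that coincide with embryo peaks are 2 of the 6. The Ptch1 site 70.4 kb upstream had 20 Bapx1 tags against 5, a ratio of 3.33 (1.21 to 11.4). The other 3 were not near an embryo peak: 15.3 kb upstream of Cdon the libraries had 19 tags against 3, a ratio of 5.28 (1.55 to 27.8), 202 kb downstream of the Gli3 start 13 against 2, a ratio of 5.41 (1.23 to 49.4), and 254 kb downstream of the Gli2 start 12 against 2, a ratio of 5.0 (1.11 to 46.0). At the Sox9 site with the smallest p, in the Cdon intron, Bapx1 had 7 tags against 8. The NIH3T3 pair was called at 0 of the 15, against 3.95% of the list.

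At the gene starts themselves there was little to separate ChIP from control. Within 500 bp of the start, the embryo pair was called at 0 of 10 members, against 3.71% of all genes, and the pooled ratio was 0.959 (0.771 to 1.19), against 1.05 (1.05 to 1.06) over all genes. Ptch1 came nearest, with 31 tags against 15, a ratio of 1.72 (0.902 to 3.43). At Boc the control was higher, with 9 tags for Bapx1 and 23 for wild type, a ratio of 0.326 (0.133 to 0.731), as at 1.96% of all genes. In NIH3T3 the pair was called at 1 of 10, against 13.3% of all genes, and the pooled ratio was 0.915 (0.630 to 1.32), against 1.42 (1.41 to 1.43) over all genes, both at the first start. With the annotated start of highest ratio taken for each member, a choice that raises the value by construction, it was 1.44 (1.02 to 2.02). The member called was Gli1, with 16 tags against 8, a ratio of 2.80 (1.13 to 7.55), which became 1.4 (0.261 to 7.51) within 250 bp and 3.54 (1.90 to 6.94) within 1000 bp, a window that takes in the peak upstream. Ihh had 0 tags for Bapx1 and 9 for V5, with an interval of the ratio that ended at 0.709, and the control was higher at 1.95% of all genes. The Sox9 pair was called at 0 of 10, against 1.72%, and its pooled ratio was 0.982 (0.736 to 1.31), against 0.873 (0.868 to 0.879) over the starts that could be placed. IgG was not called higher at any of the 10, against 4.84% of the 19984 gene starts that could be placed.

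**Figure D5:**
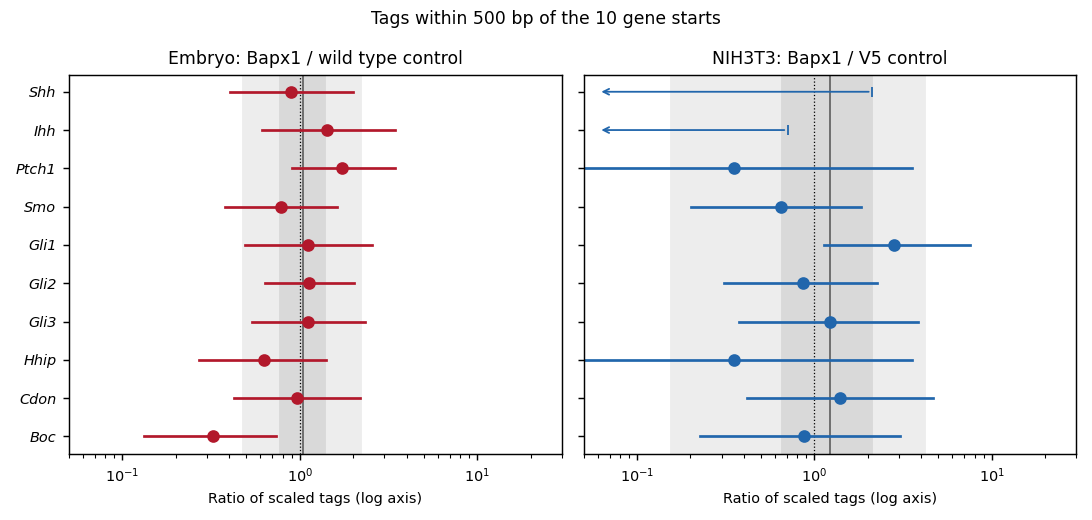
Ratio of scaled tags within 500 bp of each gene start (x axis, log) with its interval at 95% (lines), in the embryo pair and in the NIH3T3 pair. The grey bands hold the middle 50% and 90% of all genes and the line their median, arrows mark ratios of 0 by the upper limit, and Boc in the embryo and Gli1 and Ihh in NIH3T3 are the starts whose interval leaves out 1.

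The Bapx1 motif was found within 50 bp of 3 of the 15 embryo summits (interval of the share 4.33% to 48.1%), those of Gli3 at 1.74 kb, Cdon at 85.0 kb and Boc at 89.8 kb, against 31.3% of the embryo list and 10.5% of windows 500 bp to the side of the list's summits. Beside the 15 it was found in 1 of 30 such windows (3.33%). In NIH3T3 it was found at 16 of 34 (47.1%, 29.8 to 64.9), against 64.4% and 10.7%, and in 12 of 68 windows beside them (17.6%). Both shares lay below that of their list, and both intervals include it. Of the NIH3T3 summits, 4 of 5 in Gli2 and 0 of 7 in Gli1 had a match, a contrast picked out after the values were seen.

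Away from the peaks, the ratio of ChIP to control in the embryo pair ran from 0.923 at Gli1 to 1.05 at Hhip. In the NIH3T3 pair these ratios ran from 0.804 at Gli2 to 1.11 at Gli3, and the Gli1 and Smo loci, which held the most NIH3T3 peaks, had 1.47 to 1.59 times the genome-wide density of tags in both NIH3T3 libraries. Ihh, with 1 NIH3T3 peak, had 1.30 and 1.41 times that density, and Gli3, with 6, had 1.09 and 0.979 times. The part of tag density in the number of peaks was not tested. At the member summits the tags that pointed inward, as both ends of a bound fragment do, made up 65.3% (60.5 to 69.9) of the embryo Bapx1 tags and 60.0% (50.7 to 68.8) of its control, and these intervals overlap. The Smo summit alone supplied 48 of the 120 control tags, 32 of them inward. Over the whole embryo list the shares were 68.8% and 54.3%. In NIH3T3 they were 76.6% and 55.7% at the member summits, against 76.8% and 52.2% over the list, and for Sox9 they were 73.7% (68.0 to 78.9) and 58.0% (43.2 to 71.8), with intervals that overlap. Since MACS placed each summit by the tags of its own ChIP library, a higher inward share in ChIP is favoured by that choice. These shares describe the sites and test nothing.

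A list of 32 other genes tied to the pathway was examined in the same way, of which 31 were in the annotation. Called other pathway genes here, they mix further components with target and sclerotome genes, among them Ccnd1, Pax1 and Pax9. Embryo Bapx1 peaks lay in 14 of 31 loci (45.2%), Sox9 peaks in 14 (45.2%) and NIH3T3 peaks in 30 (96.8%). Over all genes the shares were 25.1%, 26.7% and 81.0%. The density in the 31 loci, 2.25 embryo and 2.75 Sox9 peaks per Mb, fell between the members and all genes. A peak was counted for each gene whose locus held it, so neighbouring loci can share a peak. Embryo peaks within 5 kb of a start were found at 3 of the 31, against 2.67% of all genes. These were the co-receptor Gas1, 3566 bp downstream with 22 tags against 2, Lrp2, an endocytic receptor for Shh, 4670 bp upstream with 16 against 1, and the target gene Ccnd1, which encodes cyclin D1, 1664 bp upstream with 27 against 8. In NIH3T3 such peaks were found at 5 of the 31, against 16.9% of all genes, at Kif7 and Spop, regulators of the Gli proteins, at Gsk3b and Btrc, which mark the Gli proteins for processing, and at Pax9, a sclerotome gene, with 2. Sufu, the main inhibitor of the Gli factors, had an embryo peak 25930 bp from its start, and Pax1, another sclerotome gene, had none.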

How the data were processed

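The authors deposited, for each of the 6 libraries, the positions of uniquely mapped tags of 35 bp with at most 2 mismatches, with no normalization, and for each ChIP library the peaks called by MACS against its control at p of 1e-05. For every peak the deposited values are its tag count, its score (−log10 of p, times 10), the ratio of ChIP to local background (fold enrichment) and the FDR in percent. The libraries held between 9124697 and 24855032 tags, after 14 PCR cycles. In the NIH3T3 libraries 2.355% and 6.527% of tags repeated a position and strand, and 1 was kept of each, which left 8901095 and 12453788.

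Genes, starts and sequence came from GENCODE on mm9 (NCBIM37). A peak belonged to a locus if its summit lay in the gene body or within 100 kb. Tags within 200 bp of a summit or 500 bp of a gene start were counted in Python 3.11.15 (numpy 2.4.6, scipy 1.17.1, pandas 2.3.3, pysam 0.24.0) and scaled to each library's tags on the autosomes, X and Y. The ratio of 2 counts has an exact binomial (Clopper-Pearson) interval at 95%, for counting error only. A place was called if the ratio was at least 1.5 and the interval lay above 1, and the share called was computed over all genes or all summits. Because every condition has a single library, variation between embryos or cultures was not measured and conditions were not tested against each other. PCR copies are not independent molecules.

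Sox9 and IgG tags were binned at 50 bp, capped at 3 per bin and correlated with the 2 embryo S-peptide libraries in windows of 500 kb with at least 1000 tags, at shifts of up to 4000 kb. A displacement was clear if its match exceeded by a factor of 1.5 the best match more than 2000 bp away. With windows of 200 kb, 99.9% of the 3247 displacements compared were the same within 100 bp. This is a match between libraries, not a conversion of builds. The interval of the ratio and the motif search were tested on simulated data. The displacement was tested on wild type S-peptide tags moved by known steps.

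The members and lists were chosen with earlier results of these data known. Named in the text are the 10 members, every embryo peak in their loci, the NIH3T3 and Sox9 peak of smallest p in each locus, NIH3T3 peaks within 5 kb of a member's first or internal start and other pathway genes with a peak within 5 kb of their first start. Other places named, among them the upstream Gli3 site of NIH3T3, the sites called in another pair, and Sufu and Pax1, were picked after their values were seen. Of 32 other pathway genes, Disp1 was not matched in the annotation.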

Additional observations from a re-analysis of the deposited data

How the results depend on the processing

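No paired analysis was possible because each condition has 1 library, and no replicate could be left out. Of 77 recomputed summary values, 51 kept their size within the interval, or within 1.5 times for counts, and 0 of the ratios whose interval left out 1 changed side. Ratios whose interval included 1 did cross it: at gene starts the NIH3T3 pair went from 0.915 to 1.12 within 1000 bp, and the embryo pair from 0.959 to 1.18 with the best annotated start. Ratios for single summits and starts were recomputed in the embryo and NIH3T3 pairs, not in the Sox9 pair, and those with a count of 0 were left out. Of the recomputed single values, 324 stayed within the interval of the main value and 5 moved, but calls were less stable. Staying within says little where that interval is wide, as with 2.66 to 690 at Cdon 32.5 kb downstream. The embryo libraries held no repeated tags, so keeping all tags could not change an embryo value. Such unchanged values are counted in the 51 and the 324. Of 13 embryo summits called in the embryo pair, Cdon at 85.0 kb upstream lost its call within 100 bp and Gli2 at 71.0 kb downstream within 500 bp. All 34 NIH3T3 summits were called in NIH3T3, against 95.8% of the whole NIH3T3 list, and 5 lost the call within 500 bp. These were 1 each in Ptch1, Smo and Gli1 and 2 in Gli2. The embryo counts depend most on the threshold: 15 peaks in 7 loci became 0 in 0 at an FDR of at most 5%, 3 in 2 at p of at most 1e-10 and 6 in 4 with flanks of 50 kb. The NIH3T3 counts became 6 peaks in 3 loci at p of at most 1e-10, and 52 peaks with flanks of 200 kb. The Sox9 count became 1 peak in 1 locus at an FDR of at most 5%. With flanks of 50 kb, other pathway genes with a peak numbered 7 for the embryo list and 8 for Sox9. Tags counted within 500 bp gave pooled ratios at the lists' own summits of 2.16 in the embryo and 4.26 in NIH3T3, and within 100 bp 10.5 in NIH3T3. The embryo ratio was 3.83 without the Smo summit, a choice made after seeing the data, as were the distances of 500 bp and 2000 bp to a Sox9 summit. The NIH3T3 pair was called at 0, 2 and 2 of the embryo summits within 100 bp, within 500 bp and with all tags, the addition being Gli3 at 1.74 kb downstream, and the embryo pair at 2 NIH3T3 summits within 100 bp and at 2 within 500 bp. At gene starts the NIH3T3 pair was called at 0 members within 250 bp. With the best of every annotated start it was called at 2, with a pooled ratio of 1.44, the addition being the Gli2 start inside the gene. Within 25 bp the motif was found at 1 embryo summit. The cause of these shifts was not tested. Depth limits what single sites show: the median embryo summit rests on 24 tags against 5, and the median NIH3T3 summit on 12 against 2.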
